A study of Rattus norvegicus with 8 samples.

Results

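The 39 genes described here encode nuclear subunits of the mitochondrial respiratory chain and of ATP synthase, with cytochrome c among them. A gene was included where the name of a probe on the array equals its symbol. All 39 were found, on 42 probes, among 26214 gene names on 30367 probes of an Agilent rat array. Of these genes, 18 belong to complex I, 4 to complex II, 5 to complex III, 7 to complex IV and 4 to complex V, and Cycs encodes cytochrome c. Ndufa4 was kept with complex I by its symbol, although it is now regarded as a subunit of complex IV.

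The respiratory chain lies in the inner membrane of the mitochondrion. Complexes I and II take electrons from NADH and succinate, complex III passes them to cytochrome c, and complex IV hands them to oxygen. Complexes I, III and IV pump protons, and complex V, ATP synthase, uses the returning protons to make ATP. Most subunits are encoded in the nucleus and a few in mitochondrial DNA, while complex II is encoded wholly in the nucleus. Absorptive cells of the colon lining rely on this chain to burn the short-chain fatty acid butyrate, their main fuel.

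The rats were female Wistar animals, 14 weeks old, whose colon RNA was compared between 4 groups. The ALA, fish oil and n-6 groups received, for 8 weeks, a diet with alpha-linolenic acid (a plant n-3 fatty acid), fish oil (long-chain n-3 fatty acids) or sunflower oil (a source of n-6 fatty acids). In these 3 groups of 10 rats colitis was induced with 5% dextran sulfate sodium, which injures the colon lining, for 7 days. The healthy group of 6 rats also received sunflower oil and had no colitis. RNA of 6 rats was pooled for an array and each group had 2 arrays, so both healthy arrays stem from the same 6 rats. For the colitis groups the labels leave it unsaid whether a single pool was measured in duplicate. The arrays of a group are therefore not independent sets of animals, and the p-values reflect array-to-array spread alone. All 8 arrays lay on 1 slide. Row 1 held ALA (columns 1 and 2) and healthy (columns 3 and 4), and row 2 held fish oil (columns 1 and 2) and n-6 (columns 3 and 4). Slide row and slide column each cannot be told apart from group in 4 of the 6 comparisons, and no comparison is free of both. Groups were taken from the titles. The description of each colitis array names the dextran sulfate sodium treatment and also calls the rat healthy.

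Levels are log2 processed intensities relative to the 75th percentile of the array. Each member was well above background on all 8 arrays at its brightest probe, so all 39 were among the 18184 genes tested with limma. Arrays stood apart in 2 ways. On n-6 replicate 1 the level was the lowest of the 8 arrays for 26 of 39 members, against 4572 of 18184 genes tested. The members' median deviation from the gene's mean over the arrays was -0.50 there, against 0.03 on n-6 replicate 2. Fish oil replicate 1 was the dimmest array, with a 75th percentile of 175.44 against 393.3 to 692.67 on the others, and 59.48% of its spots were well above background against 65.19 to 73.69%. Replicates of the n-6 group differed by a median of 0.53 over the members, with replicate 2 higher for 36 of 39. The corresponding gap was 0.38 in ALA (replicate 1 higher for 35), 0.20 in fish oil and 0.17 in healthy colon. Their number limits the precision. Of the absorptive colonocyte markers, 16 of 16 passed the filter on dim probes. So did 18184 of all 26214 gene names, so this count does not identify the tissue.

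In n-6 colitis against healthy colon, most respiratory chain genes lay lower, and 2 of them, Ndufa4 and Ndufa2, lay higher without overlap of the arrays. The median log2 difference (n-6 minus healthy) was -0.30 over the members, against -0.06 over all genes, with 33 below 0 and 6 above. The arrays did not overlap for 18 of 39 members on the lower side and 2 on the higher side, against 25.4% and 20.1% of all genes. An adjusted p under 0.05 was reached by 0 members and 0.0330% of all genes. An unadjusted p under 0.05 was reached by 6 members, Ndufa9, Sdha, Uqcrc1, Uqcrc2, Uqcrfs1 and Atp5b, each lower, which is 15.4% of them against 14.6% of all genes. The members' share is thus near the background. Without n-6 replicate 1 the median was -0.06 for the members and -0.07 for all genes, with 24 members below 0.

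Fish oil colitis lay above n-6 colitis for most members. The median (fish oil minus n-6) was 0.41, against 0.12 over all genes, with 34 members above 0. The arrays did not overlap for 18 members on the higher side and 2 on the lower side, against 28.4% and 18.7% of all genes. Members with an adjusted p under 0.05 numbered 0, against 0.0385% of all genes, and those with an unadjusted p under 0.05 numbered 3 (Sdhd, Uqcrc1 and Atp5b, each higher), which is 7.69% against 12.6%. Leaving out n-6 replicate 1 gave a median of 0.12 for the members and 0.10 for all genes. Without fish oil replicate 1 it was 0.34 against 0.06. Under normexp background correction the members' median was 0.33, below the 0.38 over all genes, and with median centring it was 0.25 against -0.05.

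In ALA colitis against n-6 colitis the members as a whole lay close to the rest of the array. The median (ALA minus n-6) was 0.18, against 0.15 over all genes, and 32 members lay above 0. The arrays did not overlap for 5 members on the higher side (Ndufa9, Uqcrc1, Uqcrc2, Uqcrfs1 and Atp5b) and 1 on the lower side (Ndufa2), against 21.0% and 10.4% of all genes. An adjusted p under 0.05 was reached by 0 members against 0.0330% of all genes, and an unadjusted p under 0.05 by Atp5b alone, against 6.13% of all genes. Without n-6 replicate 1 the median was -0.06 for members and 0.13 for all genes, and 16 members lay above 0. These 3 comparisons share the n-6 arrays, so their values are given side by side and are not independent of each other.

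**Figure D1:**
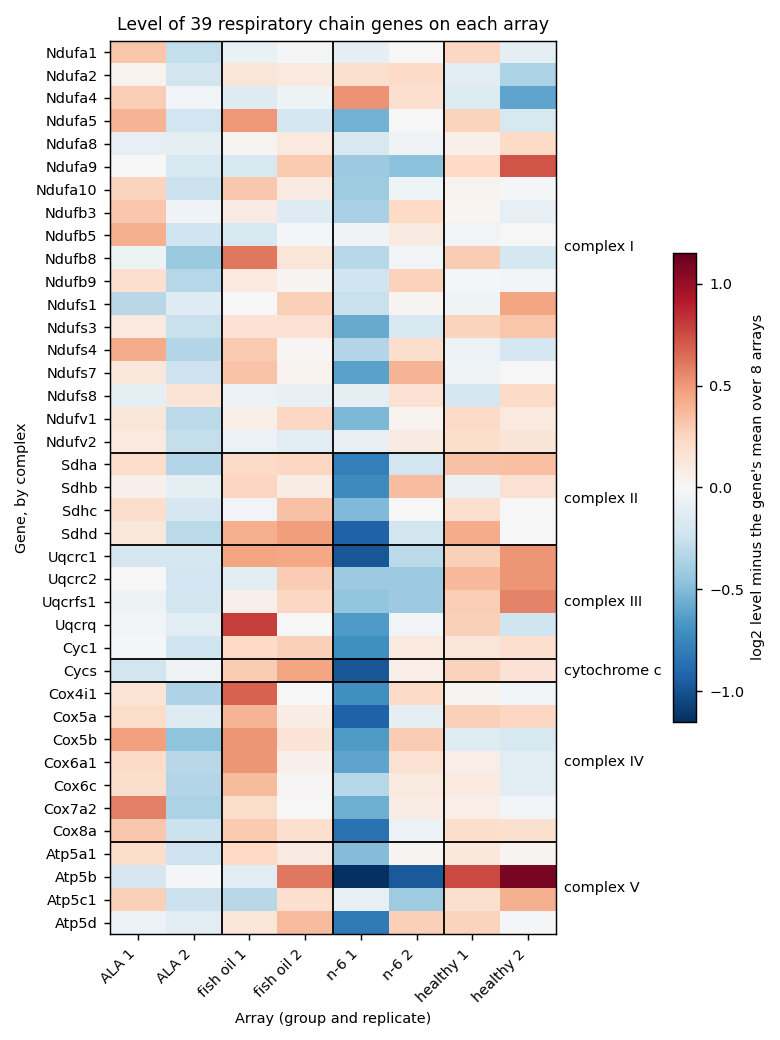
Colour map of the 39 genes (rows, by complex) on the 8 arrays (columns, ALA, fish oil, n-6 and healthy), showing each log2 level minus the gene's mean over the 8 arrays. The column of n-6 replicate 1 is the lowest of the 8 for 26 of the 39 genes, against 4572 of 18184 genes tested. Atp5b spans the widest colour range, with both n-6 arrays low and both healthy arrays high.

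Complex I holds the most members. Over all 18 of them the median was 0.06 for ALA minus n-6, 0.20 for fish oil minus n-6 and -0.15 for n-6 minus healthy (-0.10, -0.04 and -0.04 without n-6 replicate 1). Median centring of the arrays gave -0.10, 0.04 and 0.02, so the signs for ALA minus n-6 and n-6 minus healthy turned with it. Ndufa9, an accessory subunit that helps join the arm in the membrane to the arm outside it, had levels of 1.36 and 1.18 in ALA colitis, 1.18 and 1.66 in fish oil colitis, 0.94 and 0.89 in n-6 colitis and 1.59 and 2.08 in healthy colon. Both n-6 arrays were the lowest of the 8. The log2 difference was -0.93 for n-6 minus healthy (SE 0.324, limma adjusted p = 0.264, unadjusted p = 0.0244). Ndufs3, a core subunit of the arm that carries the electrons, had levels of 2.08 and 1.71 in ALA colitis, 2.13 and 2.14 in fish oil colitis, 1.39 and 1.78 in n-6 colitis and 2.22 and 2.29 in healthy colon. The n-6 arrays did not overlap with the fish oil arrays or the healthy arrays. Its difference was 0.55 for fish oil minus n-6 and -0.68 for n-6 minus healthy (limma adjusted p = 0.44 and 0.364).

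Ndufa4 went the other way. Its levels were 4.09 and 3.77 in ALA colitis, 3.66 and 3.75 in fish oil colitis, 4.32 and 4.0 in n-6 colitis and 3.65 and 3.20 in healthy colon. Both n-6 arrays lay above both fish oil arrays and both healthy arrays. The differences were -0.45 for fish oil minus n-6 and 0.73 for n-6 minus healthy (SE 0.314 each, limma adjusted p = 0.525 and 0.351). Ndufa2, a small accessory subunit given on every array after its values were seen, had 1.51 and 1.26 in ALA colitis, 1.61 and 1.58 in fish oil colitis, 1.66 and 1.69 in n-6 colitis and 1.35 and 1.11 in healthy colon. Its n-6 arrays were the highest of the 8, by a narrow margin over fish oil replicate 1. Ndufb8, an accessory subunit of the membrane arm with the highest signal among the complex I probes, had 5.63 and 5.26 in ALA colitis, 6.30 and 5.83 in fish oil colitis, 5.37 and 5.66 in n-6 colitis and 5.98 and 5.49 in healthy colon. Its fish oil arrays lay above its ALA and n-6 arrays, with a difference of -0.62 for ALA minus fish oil (limma adjusted p = 0.56).

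The other members of complex I are given by their difference for n-6 minus healthy. The core subunits Ndufs1, Ndufs7, Ndufs8, Ndufv1 and Ndufv2, which hold the iron-sulfur clusters and the flavin, had -0.32, -0.10, 0.03, -0.41 and -0.18. The accessory subunits Ndufa1, Ndufa5, Ndufa8, Ndufa10, Ndufb3, Ndufb5, Ndufb9 and Ndufs4 lay between -0.30 (Ndufa5) and 0.06 (Ndufs4) in that comparison. Ndufs4 had a further probe, dim and well above background on 5 of 8 arrays, which gave -0.62 for n-6 minus healthy and -0.70 for ALA minus healthy, where the brighter probe gave 0.06 and 0.18. The probes of Ndufs4 thus differ in sign, and its direction is not settled here.

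Complex II, succinate dehydrogenase, is shared between the chain and the tricarboxylic acid cycle. Its median was 0.35 for ALA minus n-6, 0.57 for fish oil minus n-6 and -0.57 for n-6 minus healthy (0.06, 0.31 and -0.27 without n-6 replicate 1). Sdhd, a membrane anchor subunit, had levels of 4.32 and 3.89 in ALA colitis, 4.62 and 4.68 in fish oil colitis, 3.27 and 3.99 in n-6 colitis and 4.63 and 4.21 in healthy colon. The fish oil arrays lay close together and above both n-6 arrays. The difference was 1.01 for fish oil minus n-6 (2.02-fold, SE 0.364, limma adjusted p = 0.388), and 0.65 without n-6 replicate 1. Sdha, the flavoprotein that oxidises succinate, had levels of 4.03 and 3.48 in ALA colitis, 4.04 and 4.06 in fish oil colitis, 3.03 and 3.60 in n-6 colitis and 4.16 and 4.17 in healthy colon. The fish oil pair and the healthy pair were each tight, and the n-6 arrays lay below both pairs. Its difference was -0.86 for n-6 minus healthy (0.552-fold, SE 0.338, limma adjusted p = 0.315) and -0.57 without n-6 replicate 1. Sdhc, the other membrane anchor, had 2.42 and 2.02 in ALA colitis, 2.18 and 2.55 in fish oil colitis, 1.71 and 2.21 in n-6 colitis and 2.41 and 2.22 in healthy colon. Its n-6 and healthy arrays nearly met. Sdhb, the iron-sulfur subunit, had a difference of -0.24 for n-6 minus healthy, and its groups overlapped in the 3 comparisons that involve n-6.

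Complex III had the lowest median of the 5 complexes for n-6 minus healthy. There 4 of its 5 members lay lower without overlap, against 25.4% of all genes on the lower side and 20.1% on the higher side. The median was 0.30 for ALA minus n-6, 0.59 for fish oil minus n-6 and -0.86 for n-6 minus healthy. Without n-6 replicate 1 these were 0.12, 0.50 and -0.71. Uqcrc1, the larger of the core proteins that face the matrix, had levels of 2.06 and 2.05 in ALA colitis, 2.71 and 2.70 in fish oil colitis, 1.27 and 1.94 in n-6 colitis and 2.53 and 2.76 in healthy colon. The ALA pair lay just above the n-6 pair and below the other 2 pairs. The difference was 1.096 for fish oil minus n-6 (2.14-fold, SE 0.323, limma adjusted p = 0.388) and -1.04 for n-6 minus healthy (0.486-fold, SE 0.323, limma adjusted p = 0.229), against 0.76 and -0.71 without n-6 replicate 1.

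The n-6 replicates lay closer together for Uqcrfs1 and Uqcrc2 than for Uqcrc1. Uqcrfs1, the Rieske iron-sulfur protein, had levels of 3.31 and 3.16 in ALA colitis, 3.43 and 3.61 in fish oil colitis, 2.92 and 2.95 in n-6 colitis and 3.66 and 3.94 in healthy colon. The 4 groups did not overlap with each other and stood, low to high, as n-6, ALA, fish oil and healthy. Its difference was -0.86 for n-6 minus healthy (0.55-fold, SE 0.281, limma adjusted p = 0.242), and -0.85 without n-6 replicate 1. Uqcrc2, the other core protein, had 2.19 and 1.97 in ALA colitis, 2.06 and 2.48 in fish oil colitis, 1.77 on both arrays in n-6 colitis and 2.56 and 2.69 in healthy colon. The n-6 arrays were the lowest and the healthy arrays the highest of the 8, and ALA and fish oil overlapped. The difference was -0.86 for n-6 minus healthy (0.552-fold, SE 0.294, limma adjusted p = 0.259) and -0.86 again without n-6 replicate 1. Cyc1, the cytochrome c1 subunit with the highest signal among the complex III probes, had 5.63 and 5.43 in ALA colitis, 5.89 and 5.93 in fish oil colitis, 4.95 and 5.77 in n-6 colitis and 5.80 and 5.85 in healthy colon. Its fish oil arrays were the highest of the 8. Uqcrq, a small accessory subunit, had -0.36 for n-6 minus healthy with overlapping arrays.

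Promoter sequences are printed for the members with an unadjusted p under 0.05 in limma in some comparison, except Ndufa9. They are given because the nuclear genes of the chain are known to share binding sites for the transcription factors NRF1 and GABP. RefSeq (GRCr8) supplied the 250 bases before the start of 34 of the 39 genes. Capitals mark CCGGAA (or TTCCGG on the other strand), an ETS-type site, and GCGCNNGCGC, an NRF1-type palindrome, searched on both strands. GABP belongs to the ETS family. The positions are chr1:30764303-30764552, plus strand (Sdha), chr8:59850642-59850891, minus strand (Sdhd), chr8:118467973-118468222, plus strand (Uqcrc1), chr1:184598990-184599239, plus strand (Uqcrc2), chr17:34186352-34186601, plus strand (Uqcrfs1) and chr7:1099808-1100057, plus strand (Atp5b, named Atp5f1b in RefSeq), each read 5′ to 3′ toward the gene.
Sdha: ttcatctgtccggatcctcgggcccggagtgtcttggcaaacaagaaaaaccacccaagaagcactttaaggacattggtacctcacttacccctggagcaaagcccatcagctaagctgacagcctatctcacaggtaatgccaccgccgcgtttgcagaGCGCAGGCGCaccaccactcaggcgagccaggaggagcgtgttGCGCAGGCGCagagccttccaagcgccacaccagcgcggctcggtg
Sdhd: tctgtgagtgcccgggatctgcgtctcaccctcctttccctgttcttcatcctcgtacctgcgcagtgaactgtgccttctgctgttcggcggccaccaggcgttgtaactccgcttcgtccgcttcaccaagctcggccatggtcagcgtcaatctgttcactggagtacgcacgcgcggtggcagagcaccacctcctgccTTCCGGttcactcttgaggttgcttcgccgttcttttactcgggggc
Uqcrc1: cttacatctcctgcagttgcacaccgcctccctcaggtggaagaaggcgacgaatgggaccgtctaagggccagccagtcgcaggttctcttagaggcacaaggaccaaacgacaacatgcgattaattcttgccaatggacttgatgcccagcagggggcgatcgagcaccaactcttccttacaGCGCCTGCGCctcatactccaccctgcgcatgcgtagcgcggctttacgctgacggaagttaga
Uqcrc2: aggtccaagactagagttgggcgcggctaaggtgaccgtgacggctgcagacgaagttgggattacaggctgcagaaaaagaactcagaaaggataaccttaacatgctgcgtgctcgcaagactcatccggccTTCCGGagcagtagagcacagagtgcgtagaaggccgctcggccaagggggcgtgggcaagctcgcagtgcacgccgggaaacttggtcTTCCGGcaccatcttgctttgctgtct
Uqcrfs1: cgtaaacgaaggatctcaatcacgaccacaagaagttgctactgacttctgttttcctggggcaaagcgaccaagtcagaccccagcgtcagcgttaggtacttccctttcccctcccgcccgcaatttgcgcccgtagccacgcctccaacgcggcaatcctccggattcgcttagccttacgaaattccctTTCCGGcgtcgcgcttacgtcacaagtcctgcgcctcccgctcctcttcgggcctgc
Atp5b: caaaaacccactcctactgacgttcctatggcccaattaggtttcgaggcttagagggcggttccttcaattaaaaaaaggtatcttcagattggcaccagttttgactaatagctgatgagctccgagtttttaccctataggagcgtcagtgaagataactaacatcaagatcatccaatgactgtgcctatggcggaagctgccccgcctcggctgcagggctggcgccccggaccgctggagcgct
Sdha holds the NRF1-type palindrome at 2 places and Uqcrc1 at 1, while Sdhd and Uqcrfs1 hold the ETS-type site at 1 place and Uqcrc2 at 2. Neither string of letters occurs in this window of Atp5b, or in that of Ndufa9, which is not printed. The ETS-type site occurred in 17 of the 34 promoters (50%), against 12.6% of 33469 rat promoters of the same length. By complex it was in 6 of 16 for complex I, 3 of 4 for complex II, 3 of 4 for complex III, 4 of 5 for complex IV and 1 of 4 for complex V. The NRF1-type palindrome occurred in 4 of 34 (11.8%), against 4.8%. Shorter or other forms of these sites were not searched. The letters describe the windows, and no binding was measured.

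Cycs, the mobile carrier between complexes III and IV, had levels of 4.34 and 4.50 in ALA colitis, 4.84 and 5.00 in fish oil colitis, 3.56 and 4.62 in n-6 colitis and 4.81 and 4.71 in healthy colon. The fish oil arrays were the highest of the 8, and the n-6 arrays lay on either side of the ALA arrays. The difference was 0.33 for ALA minus n-6, 0.83 for fish oil minus n-6 and -0.67 for n-6 minus healthy (SE 0.393 each, limma adjusted p = 0.941, 0.408 and 0.486). Without n-6 replicate 1 these were -0.20, 0.30 and -0.14. A further probe gave 0.40, 0.82 and -0.58.

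Complex IV, cytochrome c oxidase, had medians of 0.18 for ALA minus n-6, 0.52 for fish oil minus n-6 and -0.24 for n-6 minus healthy over its 7 members. Without n-6 replicate 1 these were -0.18, 0.11 and 0.12, so the first and the last changed sign. Cox5a, a subunit on the matrix side, had levels of 3.41 and 3.05 in ALA colitis, 3.59 and 3.29 in fish oil colitis, 2.27 and 3.09 in n-6 colitis and 3.48 and 3.44 in healthy colon. The n-6 arrays were far apart, and replicate 2 lay inside the ALA range. The difference was 0.76 for fish oil minus n-6 and -0.78 for n-6 minus healthy (SE 0.366, limma adjusted p = 0.411 and 0.382). Cox8a, a small membrane subunit, had 5.78 and 5.22 in ALA colitis, 5.77 and 5.66 in fish oil colitis, 4.61 and 5.40 in n-6 colitis and 5.67 and 5.65 in healthy colon. Cox5b, a zinc-binding subunit, had 5.48 and 4.55 in ALA colitis, 5.52 and 5.17 in fish oil colitis, 4.36 and 5.30 in n-6 colitis and 4.87 and 4.83 in healthy colon. Its ALA and n-6 replicates lay far apart, while the healthy pair was tight. Cox6a1, the ubiquitous form of a regulatory subunit with the highest signal among the complex IV probes, had 7.03 and 6.49 in ALA colitis, 7.32 and 6.87 in fish oil colitis, 6.20 and 6.98 in n-6 colitis and 6.88 and 6.69 in healthy colon, and its n-6 arrays overlapped with every other group. The remaining members Cox4i1, Cox6c and Cox7a2 had differences of -0.24, -0.10 and -0.26 for n-6 minus healthy.

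Complex V held the member with the largest difference of all 39. Atp5b, the catalytic beta subunit of ATP synthase, had levels of 1.28 and 1.46 in ALA colitis, 1.34 and 2.08 in fish oil colitis, 0.32 and 0.50 in n-6 colitis and 2.23 and 2.56 in healthy colon. Both n-6 arrays were the lowest and both healthy arrays the highest of the 8, and the ALA and fish oil arrays overlapped between them. The difference was -1.98 for n-6 minus healthy (0.253-fold, SE 0.347), with an unadjusted p of 0.00074 and a limma adjusted p of 0.126. For fish oil minus n-6 it was 1.30 (2.46-fold, limma adjusted p = 0.388) and for ALA minus n-6 0.96 (1.94-fold, limma adjusted p = 0.8). The 3 values were -1.89, 1.21 and 0.86 without n-6 replicate 1. The probe lies on chromosome 7 at 1378451 to 1378510 of the rn4 build.

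The other subunits of complex V differed less than Atp5b did. Atp5a1, the alpha subunit that alternates with beta in the catalytic head, had 5.93 and 5.49 in ALA colitis, 5.96 and 5.83 in fish oil colitis, 5.23 and 5.76 in n-6 colitis and 5.85 and 5.76 in healthy colon. Its difference was -0.31 for n-6 minus healthy (SE 0.323). Atp5c1, the gamma subunit that turns within the head, had 1.93 and 1.41 in ALA colitis, 1.34 and 1.85 in fish oil colitis, 1.56 and 1.25 in n-6 colitis and 1.84 and 2.06 in healthy colon. Its n-6 arrays lay below its healthy arrays and overlapped with the others. Atp5d, the delta subunit of the stalk, had a difference of -0.39 for n-6 minus healthy, and its n-6 replicates differed by 1.09, the widest gap among the members in that group. The median of the 4 was 0.24 for ALA minus n-6, 0.46 for fish oil minus n-6 and -0.47 for n-6 minus healthy (0.18, 0.24 and -0.37 without n-6 replicate 1).

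**Figure D2:**
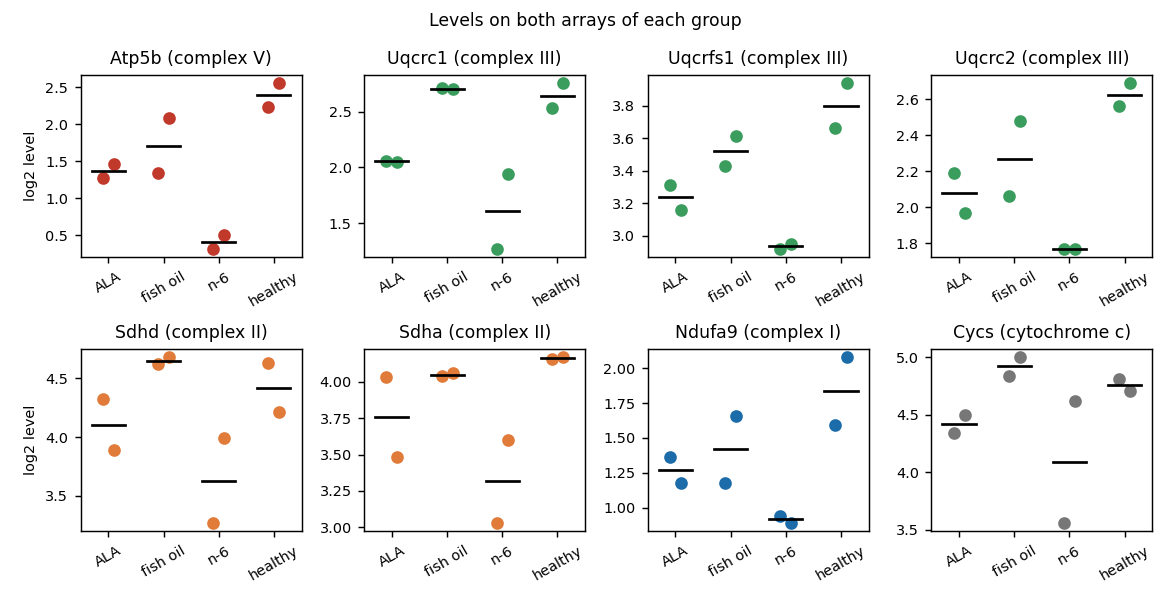
Log2 levels (vertical axes, relative to the array's 75th percentile) of 8 genes on both arrays (points) of the ALA, fish oil, n-6 and healthy groups, with the mean as a bar; vertical axes differ between panels and do not start at 0. Both n-6 arrays are the lowest for Atp5b, Uqcrc1, Uqcrfs1, Uqcrc2 and Ndufa9, while those of Cycs and Sdhd lie far apart.

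**Figure D3:**
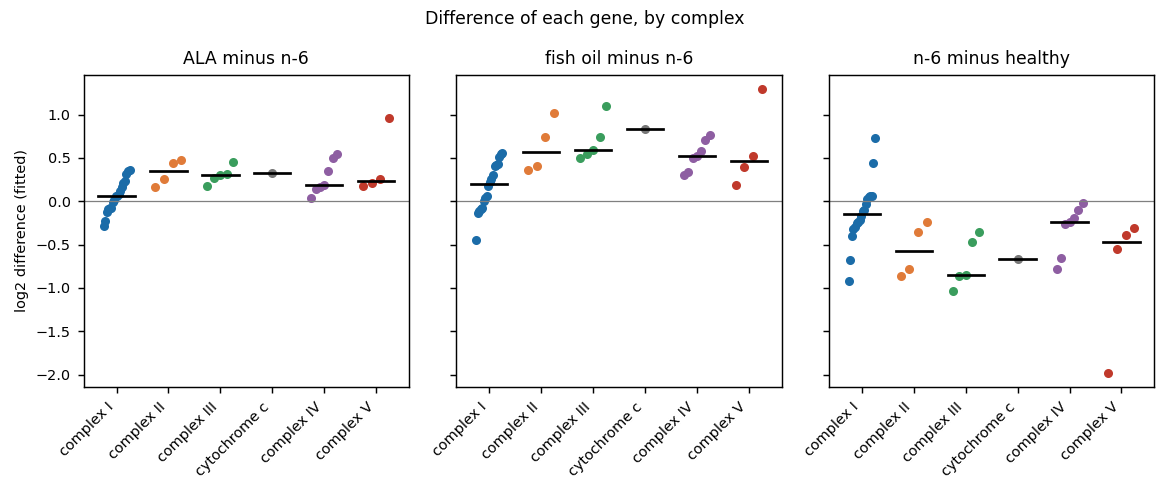
Fitted log2 differences (vertical axis) of the 39 genes (points) by complex, for ALA minus n-6, fish oil minus n-6 and n-6 minus healthy, with the median of each complex as a bar. The complex III median is -0.86 for n-6 minus healthy and that of complex I -0.15, and Atp5b of complex V lies lowest at -1.98.

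Both n-3 groups were also set against healthy colon. The median was -0.10 for ALA minus healthy (0.03 over all genes) and 0.08 for fish oil minus healthy (0.03 over all genes). For ALA it was -0.33 without ALA replicate 1 (36 members below 0) and -0.02 without ALA replicate 2 (20 below 0). For ALA the arrays did not overlap for 14 members on the lower side and 1, Ndufa4, on the higher side, against 18.6% and 22.2% of all genes. An adjusted p under 0.05 was reached by 0 members and 0% of all genes, and an unadjusted p under 0.05 by Atp5b alone (-1.03, SE 0.347, limma adjusted p = 0.735), against 6.56% of all genes. The 14 include 4 of the 5 members of complex III, whose median was -0.55. For fish oil the arrays did not overlap for 9 members on the higher side and 6 on the lower side, against 19.3% of all genes on either side. Adjusted and unadjusted p under 0.05 were reached by 0 members each, against 0% and 3.95% of all genes. The signs for fish oil minus healthy depended on the scaling, with 24 members above 0 here and 6 above 0 after quantile normalization, where the median was -0.19. Sdha, Uqcrc2, Uqcrfs1 and Atp5b were among the 6 that lay lower in fish oil colitis without overlap, with differences of -0.12, -0.36, -0.28 and -0.69.

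ALA colitis lay below fish oil colitis for 31 of 39 members, with a median of -0.21 (ALA minus fish oil), against -0.02 over all genes. It was -0.40 without ALA replicate 1 (37 below 0) and -0.03 without ALA replicate 2 (23 below 0). The arrays did not overlap for 14 on the lower side and for Ndufa4 on the higher side, against 22.1% and 24.0% of all genes. An adjusted p under 0.05 was reached by 0 members and 0% of all genes, and an unadjusted one by 0 members and 9.62% of all genes. The difference was widest for Uqcrc1, at -0.65 (SE 0.323, limma adjusted p = 0.537), where the 4 arrays were 2.06 and 2.05 in ALA colitis and 2.71 and 2.70 in fish oil colitis. Complex III had a median of -0.38, cytochrome c -0.50, complexes II, IV and V -0.24, -0.26 and -0.26, and complex I -0.14.

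The remaining nuclear subunits of the chain, from a list of 40 of which 38 were measured, had smaller medians than the members in the same directions. They were 0.11 for ALA minus n-6 (0.15 over all genes), 0.29 for fish oil minus n-6 (0.12) and -0.23 for n-6 minus healthy (-0.06). Their adjusted calls numbered 0. An unadjusted p under 0.05 for n-6 minus healthy was reached by 1 of them, which is 2.63%, below the 14.6% of all genes. That gene was Ndufa7, an accessory subunit of complex I. It had levels of -0.11 and -0.71 in ALA colitis, -0.29 and -0.08 in fish oil colitis, -0.78 and -0.72 in n-6 colitis and 0.50 and 0.04 in healthy colon. Among 3 measured isoforms usually found in other tissues, Cox6a2, the form of the Cox6a subunit known from heart and skeletal muscle, had -0.08 and 0.38 in ALA colitis, -0.22 and -2.69 in fish oil colitis, 1.1 and -0.23 in n-6 colitis and -2.10 and -2.60 in healthy colon. The fish oil replicates of Cox6a2 lay far apart. Its difference was 2.79 for n-6 minus healthy (limma adjusted p = 0.216, unadjusted p = 0.0114).

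The subunits encoded in mitochondrial DNA stood highest on 1 fish oil array. Of 13 such genes 12 were found, through the probe descriptions. Each of the 12 had its highest level on fish oil replicate 1, against 3901 of 18184 genes tested. Their median deviation was 1.52 there, against 0.17 on fish oil replicate 2. On n-6 replicate 1 the level was the lowest of the 8 arrays for 10 of 12, against 4572 of 18184 genes tested. The median was 1.36 for fish oil minus n-6, 0.26 for ALA minus n-6 and -0.47 for n-6 minus healthy, and 0.97 for fish oil minus healthy. For fish oil minus n-6, 10 of 12 did not overlap on the higher side, against 28.4% of all genes, and 8 had an unadjusted p under 0.05, against 12.6%, and 0 an adjusted one. Leaving out n-6 replicate 1 gave -0.11 for ALA minus n-6, 0.87 for fish oil minus n-6 and 0.03 for n-6 minus healthy, so the first and the last changed sign. Without fish oil replicate 1, the dimmest array, the medians were 0.76 for fish oil minus n-6 and 0.32 for fish oil minus healthy.

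Mt-co3, a core subunit of complex IV, had levels of 5.23 and 5.28 in ALA colitis, 6.81 and 5.55 in fish oil colitis, 3.58 and 5.09 in n-6 colitis and 5.58 and 5.35 in healthy colon. Its difference of 1.85 for fish oil minus n-6 was the widest of the 12, with fish oil replicate 1 and n-6 replicate 1 at the ends of the range. Mt-nd5, a proton-pumping subunit of complex I, had 2.30 and 2.46 in ALA colitis, 4.64 and 3.23 in fish oil colitis, 1.57 and 2.63 in n-6 colitis and 2.83 and 2.89 in healthy colon. Both fish oil arrays were the highest of the 8, and the difference for fish oil minus n-6 was 1.84 (unadjusted p = 0.0119 in limma). Mt-cyb, cytochrome b of complex III, had 7.03 and 6.71 in ALA colitis, 8.60 and 7.06 in fish oil colitis, 6.23 and 7.01 in n-6 colitis and 7.05 and 6.51 in healthy colon. Here fish oil replicate 2 lay beside the higher arrays of the ALA, n-6 and healthy groups. On fish oil replicate 1 the nuclear members had a median deviation of 0.21, so nuclear and mitochondrially encoded subunits did not lie equally high on that array. The part of the array's low brightness in these values was not tested.

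**Figure D4:**
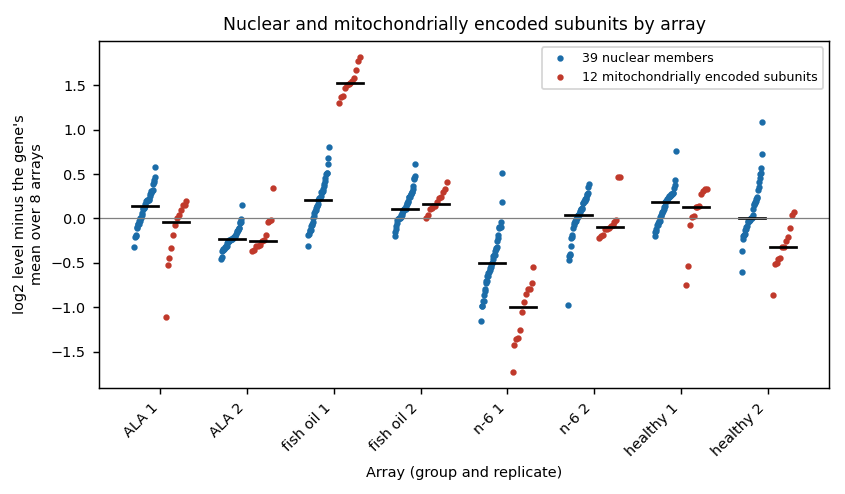
Log2 level minus the gene's mean over the 8 arrays (vertical axis) for the 39 nuclear members and 12 mitochondrially encoded subunits (points) on each array (horizontal axis, ALA, fish oil, n-6 and healthy), with medians as bars. The mitochondrially encoded subunits have a median of 1.52 on fish oil replicate 1, where the nuclear members have 0.21, and both sets are lowest on n-6 replicate 1.

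The enzymes that feed the chain lay lower in n-6 colitis too. All 20 measured genes of the tricarboxylic acid cycle and pyruvate dehydrogenase had a difference below 0 for n-6 minus healthy, with a median of -0.57, 14 without overlap on the lower side (against 25.4% of all genes) and 7 with an unadjusted p under 0.05 (against 14.6%), while 0 had an adjusted one. For fish oil minus n-6 the median was 0.56 and 16 of 20 did not overlap on the higher side, against 28.4% of all genes. For ALA minus n-6 it was 0.30 with 9 of 20, against 21.0%. Suclg2, a subunit of succinyl-CoA synthetase, had levels of 1.89 and 1.87 in ALA colitis, 2.33 and 2.40 in fish oil colitis, 1.49 and 1.43 in n-6 colitis and 2.39 and 2.94 in healthy colon. Ogdh, which makes succinyl-CoA from 2-oxoglutarate, had 0.90 and 1.18 in ALA colitis, 1.62 and 1.67 in fish oil colitis, 0.21 and 0.82 in n-6 colitis and 1.65 and 1.75 in healthy colon. In both genes the ALA arrays lay between the n-6 arrays and the fish oil arrays, without overlap. Suclg1, which has the highest signal of the list, differed by -0.54 for n-6 minus healthy.

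Among 14 measured regulators of mitochondrial biogenesis the median for n-6 minus healthy was -0.24, with 3 lower and 0 higher at an unadjusted p under 0.05, which is 21.4% of the list against 14.6% of all genes. The median was 0.22 for ALA minus n-6 and -0.09 for fish oil minus n-6, where 8 of 14 lay below 0. Pprc1, a coactivator related to Ppargc1a and named after its values were seen, had a difference of -1.17 for fish oil minus n-6 and 0.56 for n-6 minus healthy. Ppargc1b, a coactivator of the nuclear genes of mitochondria, had levels of -2.76 and -1.65 in ALA colitis, -1.60 and -1.25 in fish oil colitis, -5.55 and -3.10 in n-6 colitis and -1.67 and -1.19 in healthy colon. Both n-6 arrays were the lowest of the 8, and they lay far apart. Its difference was 2.12 for ALA minus n-6, 2.90 for fish oil minus n-6 and -2.90 for n-6 minus healthy (SE 0.784, limma adjusted p = 0.8, 0.388 and 0.196). The related Ppargc1a, named after its values were seen, had -4.30 and -4.14 in ALA colitis, -3.88 and -3.52 in fish oil colitis, -7.76 and -4.86 in n-6 colitis, where 1 of 2 arrays was well above background, and -3.08 and -3.07 in healthy colon. Ppara, a fatty acid receptor, was not well above background on any fish oil or n-6 array. Its measured signal was 3.19-fold lower in n-6 colitis than in healthy colon (limma adjusted p = 0.179). In ALA colitis it was 3.01-fold higher than in n-6 colitis (limma adjusted p = 0.785). Both ratios rest on n-6 signal that was not well above background. Twnk, the mitochondrial DNA helicase, had the highest signal of the list and differed by 0.02 for n-6 minus healthy.

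Assembly factors of the chain, 33 of 41 tested, had a median of -0.30 for n-6 minus healthy, 0.08 for fish oil minus n-6 and 0.11 for ALA minus n-6. Over all genes these medians were -0.06, 0.12 and 0.15. Cox11, which delivers copper to complex IV, had levels of -4.14 and -4.50 in ALA colitis, -3.52 and -2.96 in fish oil colitis, -4.44 and -4.94 in n-6 colitis and -3.49 and -2.81 in healthy colon. Its ALA and n-6 arrays lay below its fish oil and healthy arrays, with a difference of -1.55 for n-6 minus healthy (limma adjusted p = 0.187). Cox17, a copper chaperone with the highest signal of the list, differed by 0.18. Of 15 measured carriers, channels and import genes, Slc25a5, an ADP/ATP carrier, had 5.44 and 4.83 in ALA colitis, 5.29 and 5.49 in fish oil colitis, 4.34 and 4.46 in n-6 colitis and 5.15 and 5.47 in healthy colon. Its n-6 arrays lay below the other 6, with a difference of -0.91 for n-6 minus healthy (limma adjusted p = 0.274) against a list median of -0.22. Slc25a4 of the same list, named after its values were seen, went the other way, with 0.78 for n-6 minus healthy. For fish oil minus n-6 Slc25a4 had -0.43, and the list median was -0.01, with 8 of 15 genes below 0. Cytosolic ribosomal proteins, another group of housekeeping genes, lay on the other side for n-6 minus healthy, with a median of 0.18 over 22 genes. Their median was 0.01 for fish oil minus n-6, with 11 genes above 0 and 11 below. For ALA minus n-6 it was 0.10, with 19 above 0, on the same side as the members. Against healthy colon it was 0.26 for ALA and 0.19 for fish oil.

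Markers of the cell types of the colon also differed between the groups. Absorptive colonocyte markers, 16 of 16 measured, had medians of -1.56 for n-6 minus healthy, 1.24 for fish oil minus n-6 and 0.54 for ALA minus n-6. Their summed signal, in units of the array's 75th percentile, ran from 654 to 731 in ALA colitis, 797 to 1590 in fish oil colitis, 358 to 878 in n-6 colitis and 758 to 825 in healthy colon. The lowest of the 8 arrays was n-6 replicate 1 for 12 of the 16, against 4572 of 18184 genes tested. The largest sum was on fish oil replicate 1. The summed signal of the 10 macrophage markers was 22.7 to 27.7 in ALA colitis, 19.4 to 28 in fish oil colitis, 31.3 to 33.6 in n-6 colitis and 14.6 to 15.1 in healthy colon. The 9 fibroblast markers summed to 43.7 to 47.8 in ALA colitis, 40.6 to 55.6 in fish oil colitis, 72.5 to 112 in n-6 colitis and 34.6 to 46.6 in healthy colon. Red blood cell genes, 5 measured, summed to 8.84 to 9.53 in ALA colitis, 6.46 to 6.62 in fish oil colitis, 108 to 159 in n-6 colitis and 4.43 to 5.06 in healthy colon. Macrophage, fibroblast and red cell genes thus had their highest sums on the n-6 arrays. The 10 smooth muscle markers summed to 323 to 329 in ALA colitis, 472 to 545 in fish oil colitis, 382 to 426 in n-6 colitis and 302 to 474 in healthy colon. The 9 goblet cell markers summed to 56.7 to 77.5 in ALA colitis, 50.1 to 64.7 in fish oil colitis, 40.6 to 60.9 in n-6 colitis and 36.2 to 46.5 in healthy colon. Smooth muscle signal was highest on the fish oil arrays, overlapping with healthy colon at its lower end. Lymphocyte markers, 8 measured, summed to 4.08 to 17.2 in ALA colitis, 2.26 to 2.34 in fish oil colitis, 4.81 to 12.9 in n-6 colitis and 3.67 to 3.94 in healthy colon. Neutrophil markers, 5 measured, summed to 0.334 to 0.963 in ALA colitis, 0.359 to 0.578 in fish oil colitis, 0.474 to 1.36 in n-6 colitis and 0.0926 to 0.21 in healthy colon. Fat cell markers, 3 measured, summed to 2.57 to 7.5 in ALA colitis, 4.81 to 5.04 in fish oil colitis, 1.58 to 8.53 in n-6 colitis and 3.18 to 9.76 in healthy colon. In whole tissue, fewer cells of a type and less RNA per cell cannot be told apart, and the part of cell composition in the members' values was not tested.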

How the data were processed

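The scanner files hold spot intensity values made with Agilent Feature Extraction 11.5.1.1, per the file headers, from Cy3-labelled cRNA primed with oligo-dT, per the labels' protocols. The processed intensity is background-subtracted and not scaled between arrays, per the file headers. A deposited table of log2 values, with 26205 symbols, served as an alternative. Its scale and direction were checked against the scanner values of the same array (correlation 0.982 to 0.989 across genes), its 75th percentiles lay between 0.0032 and 0.00898, and its column medians were -2.892 and -3.149 (ALA), -2.934 and -3.097 (fish oil), -3.138 and -3.152 (n-6) and -2.928 and -3.182 (healthy). Its rule for joining probes is not given in the sources used.

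Control and outlier spots were left out and spots of a probe averaged. Levels are log2 processed intensity minus the array's 75th percentile. Probes were kept where both arrays of some group were well above background (20801 of 30367), and a gene is its probe with the highest mean signal, which left 18184 genes. The 6 comparisons come from 1 limma fit (version 3.58.1, R 4.3.3) over all 8 arrays (4 residual and 2.96 prior degrees of freedom), with Benjamini-Hochberg adjustment over all genes tested, at 0.05. The script was tested on simulated data. Values on every array are given for the member of each complex with the highest signal and for up to 3 members a complex with the smallest unadjusted p among those without overlap, and other lists give up to 3 genes, those with the highest signal and the smallest unadjusted p in the 3 comparisons that involve n-6. Ndufa2, Pprc1, Ppargc1a and Slc25a4 were added after their values were seen. The members, lists and motifs were chosen with earlier results of these data known. Alternatives were normexp (offset 50), median centring, quantile normalization, the deposited table, other filters, the mean of a gene's probes, only the groups compared, an intensity trend, a replicate block and leaving out each array. Probe positions are on rn4. Promoters and current names are RefSeq's, on GRCr8. A gene that the naming rule selects is not reported here.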

Additional observations from a re-analysis of the deposited data

Results flagged for a closer look

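In 5 instances both arrays of 1 group lay on the opposite side of both healthy arrays from both arrays of another group. How often all genes show such a pattern was not counted. Against healthy colon, fish oil lay higher without overlap for 19.3% of all genes. ALA lay lower for 18.6% and n-6 for 25.4%. For Cycs, the fish oil arrays lay above healthy colon and both the ALA and the n-6 arrays below it. The gap was -0.498 for ALA minus fish oil and -0.828 for n-6 minus fish oil. A further Cycs probe did not show it: there the fish oil arrays had levels of 4.29 and 3.97, the n-6 arrays 2.73 and 3.88 and the healthy arrays 3.76 and 4.02, so fish oil and n-6 each overlapped with healthy colon. For Cyc1 the same pattern gave -0.376 for ALA minus fish oil and -0.547 for n-6 minus fish oil. For Ndufa10, an accessory subunit of complex I, n-6 lay below and fish oil above healthy colon, with a gap of -0.43. Margins to healthy colon were narrow on the fish oil and n-6 sides. Lower fish oil and higher healthy arrays had 4.84 and 4.81 for Cycs, 5.89 and 5.85 for Cyc1 and 3.21 and 3.15 for Ndufa10. Higher n-6 and lower healthy arrays had 4.62 and 4.71 for Cycs, 5.77 and 5.80 for Cyc1 and 3.06 and 3.09 for Ndufa10. The signs for fish oil minus healthy also depended on the scaling, with 24 members above 0 here and 6 after quantile normalization. The interaction itself is the contrast of these colitis groups, since the healthy arrays are shared, and their limma adjusted p was above 0.05 in each case. It was 0.65 for Cycs and 0.698 for Cyc1 in ALA against fish oil, and 0.408 for Cycs, 0.487 for Cyc1 and 0.541 for Ndufa10 in fish oil against n-6.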

How the results depend on the processing

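The number of members with an adjusted p under 0.05 was 0 in each of the 6 comparisons under each of the 18 alternatives. The sign of the median member difference for n-6 minus healthy and for fish oil minus n-6 was kept with each array left out, while its size rested on the n-6 arrays. With an array left out in turn, the median ran from -0.061 (without n-6 replicate 1) to 0.505 (without n-6 replicate 2) for ALA minus n-6, from 0.124 (without n-6 replicate 1) to 0.663 (without n-6 replicate 2) for fish oil minus n-6, and from -0.588 (without n-6 replicate 2) to -0.06 (without n-6 replicate 1) for n-6 minus healthy. Where an array is left out its partner is assumed to vary like the other groups. For fish oil minus healthy the median was -0.192 under quantile normalization, against 0.08, and the cause was not tested. Members without overlap between ALA and fish oil numbered 9 with normexp (2 higher, 7 lower) and 9 with the deposited value table (2 higher, 7 lower), against 15. Median centring moved the median of all genes to -0.01 for ALA minus n-6 (0.03 for members), -0.05 for fish oil minus n-6 (0.25) and 0.11 for n-6 minus healthy (-0.14). Under normexp the all-gene median was 0.38 for fish oil minus n-6, above the members' 0.33, so the members lay no higher than the rest there.

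Calls over all genes changed more than those of the members. For n-6 minus healthy 6 genes passed, against 15 with normexp, 26 when the prior was robust and followed intensity, 2 with the deposited table, 0 with only the groups compared, and 197 without n-6 replicate 2. For ALA minus n-6 the 6 became 0 with the deposited table, no filter on dim probes or the mean of a gene's probes. For fish oil minus n-6 the 7 became 4 with normexp and 0 with no filter on dim probes. Same-numbered arrays are linked in the titles by the replicate number alone. Their deviations from the group means correlated between -0.168 (fish oil and n-6) and 0.47 (ALA and healthy). Each of these 2 pairs of groups shared a slide row. Whether same-numbered arrays have more in common than the number was not tested. With the number as a replicate block 0 members passed in each comparison, and the genes called were 0 for ALA minus n-6, 6 for fish oil minus n-6 and 11 for n-6 minus healthy. The median gap between the n-6 replicates, 0.527, was wider than the members' median difference in each comparison.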
